A study of Mus musculus with 6 samples.

Results

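The genes of TGF-beta and activin signalling were described in mouse dendritic cells cultured with or without DB2313. They were 9 genes, taken by name from the 54532 annotated genes of the count table: *Tgfb1*, *Inhba*, *Tgfbr1*, *Tgfbr2*, *Acvrl1*, *Smad3*, *Smad7*, *Skil* and *Tgfbi*. All 9 were among the 14174 genes that passed the filter on low counts. The control group held 3 libraries of cells that received no DB2313, and the DB2313 group held 3 libraries of treated cells. DB2313 is a small molecule that the study used as an inhibitor of Spi1, also called PU.1, an ETS transcription factor of myeloid cells. The labels gave no strain, sex, age, dose or time of treatment for either group, and no separate culture or animal for each library, so the p-values measure the spread between these libraries, which may be technical. Of the count columns, 3 were named for Spi1 and 3 BMDC, and every direction below rests on reading the Spi1 columns as DB2313. The labels call the cells dendritic cells, while the RNA-seq methods of the study speak of macrophages.

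TGF-beta and activin are secreted dimers of one protein superfamily. Each binds a type II receptor kinase that activates a type I receptor, which then phosphorylates SMAD proteins that enter the nucleus with Smad4 and change transcription. Smad7 and Skil restrain the pathway and are themselves induced by it. In dendritic cells and macrophages TGF-beta is known for restraining inflammatory activation, and it is stored outside cells in a latent form that must be released.

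RefSeq promoter windows on GRCm38.p6, from 250 bases before to 50 bases after the start site, were read for 6 of the 9 genes. No window was read for *Acvrl1*, *Smad7* and *Skil*, so their motifs are not described. This does not show that these genes lack a RefSeq window. The windows of *Inhba* and *Tgfbi* are shown because these were the genes that rose with DB2313. That of *Tgfbr2* is shown as an example with the letters of the core that PU.1 binds, which a window of *Tgfbr1* also held. The window of *Inhba* is chr13:16011601-16011900 on the plus strand, that of *Tgfbi* is chr13:56609336-56609635 on the plus strand and that of *Tgfbr2* is chr9:116175314-116175613 on the minus strand. Capitals mark TATAAA in *Inhba*, CAGAC on the reverse strand (read as GTCTG) in *Tgfbi*, and CAGAC followed by GAGGAA in *Tgfbr2*.
Inhba: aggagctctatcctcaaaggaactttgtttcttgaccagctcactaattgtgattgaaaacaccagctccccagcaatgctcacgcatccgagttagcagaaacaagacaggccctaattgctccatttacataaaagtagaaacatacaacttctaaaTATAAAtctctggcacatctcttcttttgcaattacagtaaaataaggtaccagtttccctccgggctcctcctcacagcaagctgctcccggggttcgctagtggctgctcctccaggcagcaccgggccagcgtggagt
Tgfbi: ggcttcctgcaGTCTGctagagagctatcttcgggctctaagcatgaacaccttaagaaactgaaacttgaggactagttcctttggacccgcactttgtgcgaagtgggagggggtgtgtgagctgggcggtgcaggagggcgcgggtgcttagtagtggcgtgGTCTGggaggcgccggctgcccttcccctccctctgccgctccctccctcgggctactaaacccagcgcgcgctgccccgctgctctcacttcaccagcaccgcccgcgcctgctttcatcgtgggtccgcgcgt
Tgfbr2: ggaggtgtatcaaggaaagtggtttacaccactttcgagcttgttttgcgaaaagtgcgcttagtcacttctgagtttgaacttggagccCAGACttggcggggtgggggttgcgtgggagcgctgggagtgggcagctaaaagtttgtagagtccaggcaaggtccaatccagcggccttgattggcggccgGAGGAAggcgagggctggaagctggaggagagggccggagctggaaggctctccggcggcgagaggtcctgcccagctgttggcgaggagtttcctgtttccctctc

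Motifs were searched on both strands. The ETS core GAGGAA was in 28.3% of all 32851 windows, the SMAD box CAGAC in 49.6%, the AP-1 site TGANTCA in 7.81% and TATAAA in 13.6%. The motifs share no bases in these windows. The *Tgfbi* window held CAGAC at 2 places, at -239 and -85 from its RefSeq start site. That site, 56609586, is not the gene start in the count table, 56609523. The *Tgfbr2* window held CAGAC at -160 and GAGGAA at -57. GAGGAA was not in the windows of *Inhba* and *Tgfbi*, the genes that rose. The *Inhba* window held TATAAA at -91, and its GC content was 47.7%, against 63.3% in *Tgfbi* and a median of 52.7% over all windows. The windows of *Tgfb1* and *Smad3* held none of the 4 motifs. *Tgfbr1* had 2 windows, and the one at the downstream start site held GAGGAA and CAGAC while the other held none. These matches describe letters in a window, and binding was not measured.

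Total counts were 16146743 to 19764677 per library. Between libraries of one group, chi-square values of their counts, divided by the degrees of freedom, were 4.77 to 5.28 for the control pairs and 7.43 to 17.7 for the DB2313 pairs, with DB2313 replicates 1 and 3 the most distant. Between control and DB2313 libraries the values were 15.9 to 25.2, so that DB2313 replicates 1 and 3 were as far apart as some libraries of different groups. Of the marker lists for dendritic cells (14 genes) and macrophages (12 genes), every gene but *Cd209a* reached 1 CPM (counts scaled to the library size, adjusted by TMM) in at least 1 library. The summed level of the dendritic cell list was 13845 to 14104 CPM in control and 11845 to 13757 CPM with DB2313. Most of this sum came from *Cd74*, *H2-Aa*, *H2-Ab1*, *H2-Eb1* and *Ccr7*, none of which was called. In this list 3 of the 13 tested genes (*Itgax*, *Batf3* and *Irf4*) were lower. For macrophage markers the sums were 9973 to 11361 and 9025 to 9921 CPM, mostly *Lyz2*, which was not called. Of the 12 macrophage genes, 2 were higher (*Marco* and *Fcgr1*) and 5 lower (*Csf1r*, *Cd14*, *Mrc1*, *Cd163* and *Msr1*). Beside these counts, 4.66% of all tested genes were called as higher and 5.94% as lower (edgeR adjusted p under 0.05). Markers of other cells were also read, with sums of 4463 to 5010 and 4509 to 5919 CPM for neutrophils (10 genes, 2 higher and 1 lower), and 2573 to 2774 and 2629 to 3136 CPM for mast cells and basophils (10 genes, 2 higher). Megakaryocyte and platelet markers summed to 261 to 287 and 289 to 334 CPM (7 of 8 tested, *Itgb3* higher), and T cell markers to 224 to 262 and 226 to 334 CPM (12 genes, none called). Fibroblast markers summed to 76.2 to 98.7 and 80.5 to 104 CPM, mostly *Thy1*, with *Col3a1*, *Dcn* and *Lum* at 0 counts in all 6 libraries. Endothelial markers summed to 92.6 to 101 and 94.8 to 108 CPM, mostly *Vwf* and *Pecam1*, with *Cldn5* at 0 counts and *Cdh5*, *Tek* and *Emcn* under 1 CPM in all 6 libraries. The part of these cells in the results below was not tested.

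Levels of the 9 genes were first compared per length, as RPKM (CPM per kilobase of gene length). In control, *Tgfbi*, an extracellular matrix protein induced by TGF-beta, was the highest at 146 ± 0.961 RPKM, followed by the ligand *Tgfb1* at 72.03 ± 2.45 RPKM (SD, n = 3). *Skil* (13.5 ± 0.311), *Tgfbr2* (11.2 ± 0.626) and *Tgfbr1* (10.8 ± 1.19 RPKM) formed a middle group, in which the 2 receptors overlapped. *Acvrl1* (4.47 ± 0.190), *Smad3* (4.04 ± 0.419) and *Smad7* (3.94 ± 0.529 RPKM) lay below them, and each overlapped its neighbour in this order. *Inhba*, which encodes the subunit of activin A, was the lowest at 1.38 ± 0.246 RPKM, and no library of it overlapped the gene above. With DB2313 the order was the same for the 3 highest genes and the lowest, while *Tgfbr1* came before *Tgfbr2* and *Smad3* before *Acvrl1*. *Smad3* then lay above *Acvrl1* in all libraries, at 5.07 ± 0.857 against 3.69 ± 0.376 RPKM, whereas *Skil* and *Tgfbr1* overlapped, as did *Tgfbr1* and *Tgfbr2*, and *Acvrl1* and *Smad7*.

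**Figure D1:**
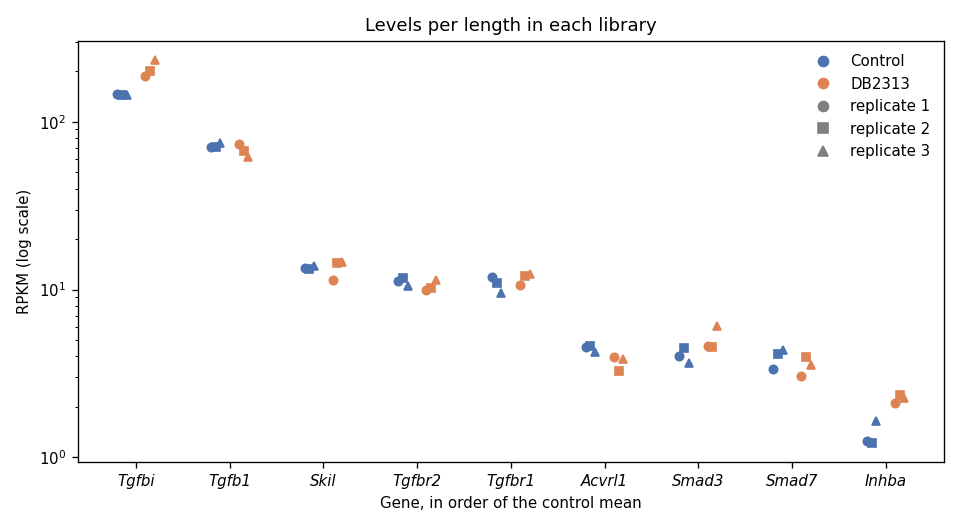
Level per length (RPKM, logarithmic axis) of the 9 genes in each of the 3 control and 3 DB2313 libraries, in order of the control mean. Tgfbi was the highest gene at 146 RPKM and Inhba the lowest at 1.38 RPKM in control, and in both genes all DB2313 points lie above all control points.

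To ask which of these genes DB2313 changed, all 14174 genes were fitted with the quasi-likelihood test of edgeR, and p-values were adjusted over all of them by the Benjamini-Hochberg method. *Tgfbi* and *Inhba* rose, and no gene of the 9 fell. This was 2 of 9 genes (22.2%), while 10.6% of all tested genes were called, 4.66% as higher and 5.94% as lower with DB2313. Because the 9 genes were chosen with earlier results of these data known, their share is no test. Control and treated libraries had separate CPM ranges for 4 genes (*Tgfbi*, *Inhba*, *Smad3* and *Acvrl1*), and for 27.4% of all tested genes. The median log2 fold change of the 9 genes was 0.0019 and that of all tested genes 8.2e-04, and the medians of the absolute log2 fold change were 0.157 and 0.159. The first median is the value of *Skil* itself, with 4 of the genes above it and 4 below. In bulk libraries such as these, fewer cells of a type and less RNA per cell cannot be told apart.

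**Figure D2:**
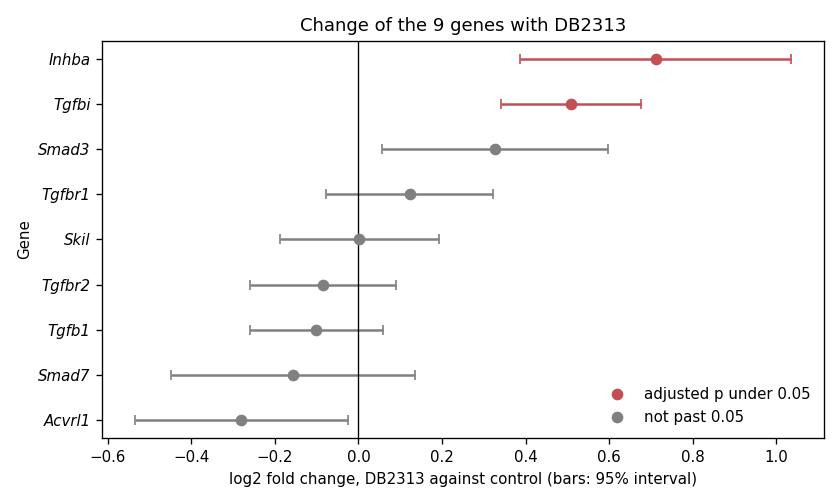
Log2 fold change of each of the 9 genes, DB2313 against control, from the edgeR fit over all genes, with 95% intervals as bars and genes past an adjusted p of 0.05 in red. Inhba (0.71) and Tgfbi (0.51) passed, and the intervals of Smad3 and Acvrl1 leave out 0 without passing after adjustment.

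The ligand genes differed. *Inhba* (ENSMUSG00000041324, chromosome 13, 16011851 to 16031621, plus strand) was at 7.99, 7.78 and 10.6 CPM in control replicates 1 to 3, and at 13.5, 15.1 and 14.5 CPM in DB2313 replicates 1 to 3. Every DB2313 library was above every control library, and control replicate 3 was the control closest to them. Its mean rose from 8.79 ± 1.57 to 14.4 ± 0.843 CPM (SD, n = 3 each), which was 1.64-fold (95% interval 1.31 to 2.05), a shift of 0.71 ± 0.15 on the log2 scale (SE, edgeR adjusted p 0.00687). It was the least abundant of the 9 genes, with 124 to 169 counts per control library and 222 to 302 per DB2313 library. The edgeR adjusted p was 0.0458 without control replicate 1, 0.0447 without control replicate 2 and 0.0432 without DB2313 replicate 2.

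*Tgfb1* (ENSMUSG00000002603, chromosome 7, 25687002 to 25705077, plus strand), the main TGF-beta isoform of leukocytes, was at 355, 357 and 377 CPM in the control replicates and at 369.8, 336 and 309.9 CPM in the DB2313 replicates. DB2313 replicate 1 lay among the controls and the other DB2313 libraries below them. In log2 fold change this was -0.10 ± 0.07 (SE), or 0.932-fold with a 95% interval from 0.835 to 1.04 (edgeR adjusted p 0.465).

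Among the receptors, none passed. *Tgfbr1* (ENSMUSG00000007613, chromosome 4, 47353222 to 47414931, plus strand), the type I receptor for TGF-beta, was at 77.4, 71.4 and 62.03 CPM in control and at 69.9, 78.5 and 81.2 CPM with DB2313. The groups overlapped, and the fold was 1.09 with a 95% interval from 0.948 to 1.25 (edgeR adjusted p 0.482). *Tgfbr2* (ENSMUSG00000032440, chromosome 9, 116084293 to 116175360, minus strand), the type II receptor, was at 92.6, 95.8 and 85.8 CPM in control and at 81.1, 83.4 and 94.04 CPM with DB2313. DB2313 replicate 3 lay within the control range, and the fold was 0.943 with a 95% interval from 0.835 to 1.06 (edgeR adjusted p 0.595). Its transcripts hold stretches of up to 171 bp that other genes share at 95% identity or more, as no other of the 9 genes does, so some of its reads may be uncertain.

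*Acvrl1* (ENSMUSG00000000530, chromosome 15, 101128522 to 101145336, plus strand) encodes ALK1, a type I receptor best known from endothelial cells, where it binds BMP9 and BMP10. It was at 19.5, 19.6 and 18.1 CPM in control and at 16.9, 13.9 and 16.4 CPM with DB2313. All DB2313 libraries were below all controls, and DB2313 replicate 2 was the lowest. This was -0.28 ± 0.12 on the log2 scale (SE). The unadjusted p was 0.0332, and after adjustment (edgeR, 0.167) the gene did not pass. Of the 8 endothelial markers, 4 (*Cdh5*, *Tek*, *Emcn* and *Cldn5*) were under 1 CPM in all libraries. *Vwf* was at 40.4 to 55.8 CPM and *Pecam1* at 46.4 to 52.3 CPM. *Kdr* reached at most 1.96 and *Tie1* at most 1.15 CPM. No endothelial marker was called, and the part of endothelial cells in the level of *Acvrl1* was not tested. An antisense gene, *Gm16031*, overlaps 2.98% of the exonic bases of *Acvrl1* and had at most 1 count in any library.

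Neither *Smad3* nor the inhibitors *Smad7* and *Skil* passed. *Smad3* (ENSMUSG00000032402, chromosome 9, 63646767 to 63757994, minus strand), the SMAD phosphorylated by TGF-beta and activin receptors, was at 22.3, 24.8 and 20.1 CPM in control and at 25.7, 25.1 and 33.6 CPM with DB2313. The groups did not overlap, but DB2313 replicates 1 and 2 lay close to control replicate 2 and replicate 3 stood above all others. This was 0.33 ± 0.13 on the log2 scale (SE). The unadjusted p was 0.0212, and after adjustment (edgeR, 0.126) the gene did not pass. With DB2313 replicate 3 left out, the log2 fold change was 0.18 (edgeR adjusted p 0.339).

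*Smad7* (ENSMUSG00000025880, chromosome 18, 75367529 to 75395935, plus strand), which blocks type I receptors and recruits ubiquitin ligases to them, was at 15.1, 18.6 and 19.7 CPM in control and at 13.8, 17.9 and 16.2 CPM with DB2313. The groups overlapped, and the fold was 0.897 with a 95% interval from 0.733 to 1.10 (edgeR adjusted p 0.551). *Skil* (ENSMUSG00000027660, chromosome 3, 31095058 to 31122577, plus strand) encodes SnoN, a nuclear repressor of SMAD complexes. It was at 130.4, 128 and 134 CPM in control, and at 111 CPM in DB2313 replicate 1 against 140.6 and 142 CPM in replicates 2 and 3. The DB2313 libraries lay on both sides of the controls, and the fold was 1.00 with a 95% interval from 0.878 to 1.14 (edgeR adjusted p 0.993).

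*Tgfbi* (ENSMUSG00000035493, chromosome 13, 56609523 to 56639562, plus strand), which encodes a secreted matrix protein that binds integrins and is named for its induction by TGF-beta, was at 553, 548 and 547 CPM in control and at 711, 753 and 883 CPM with DB2313. The controls lay within 1.01-fold of each other, and all DB2313 libraries were above them, with replicate 3 the highest. Its mean rose from 549 ± 3.62 to 782 ± 90.01 CPM (SD, n = 3 each), or 1.42-fold with a 95% interval from 1.27 to 1.6. In log2 fold change this was 0.51 ± 0.08 (SE, edgeR adjusted p 6.7e-04), on 8717 to 9001 counts per control library and 11704 to 15006 per DB2313 library. With DB2313 replicate 3 left out, the log2 fold change was 0.41 (edgeR adjusted p 3.0e-05).

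**Figure D3:**
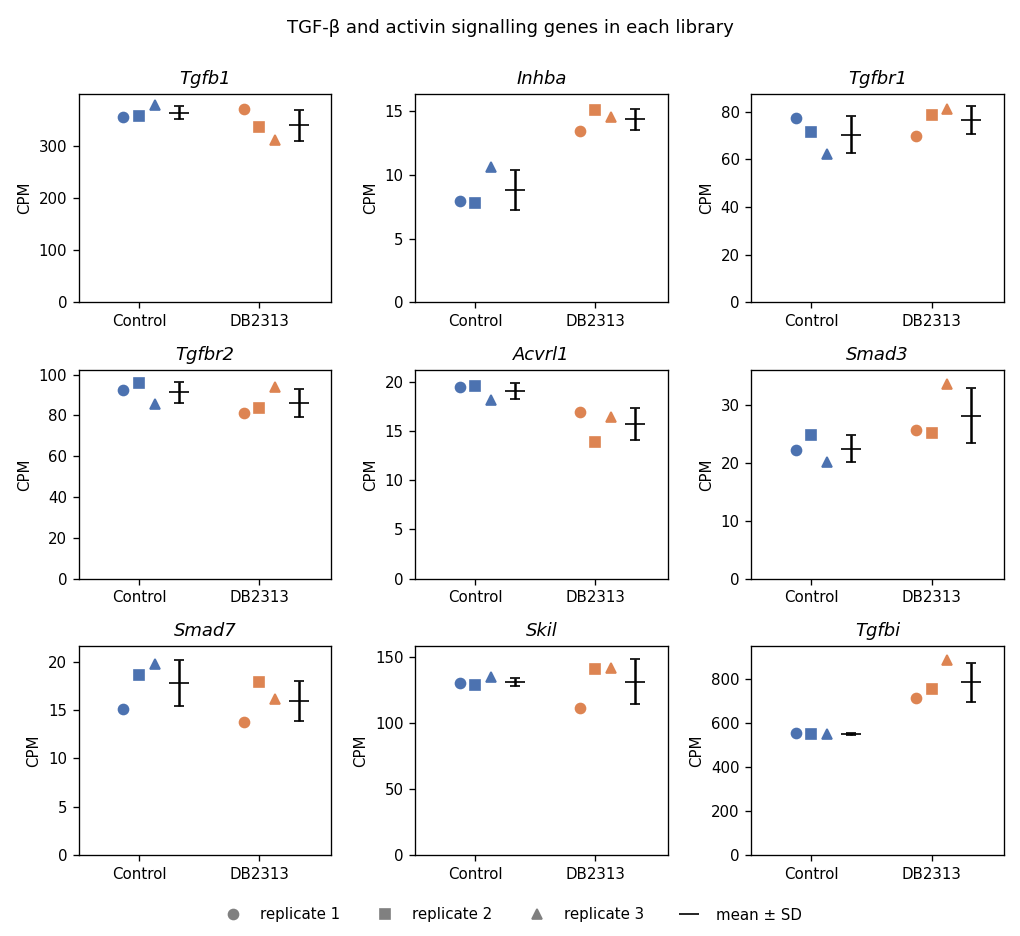
CPM of the 9 genes in each library (axes start at 0), with the mean and SD of each group of 3 in black. The DB2313 points of Inhba and Tgfbi lie above their controls, and those of Tgfb1, Tgfbr1, Tgfbr2, Smad7 and Skil overlap the controls.

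In DB2313 replicate 3, *Tgfbi*, *Smad3*, *Tgfbr1*, *Tgfbr2* and *Skil* had their highest and *Tgfb1* its lowest value of the DB2313 group. The coefficient of variation between DB2313 libraries was above that between controls for 6 of the genes, from 0.660% to 11.5% in *Tgfbi* and from 2.30% to 13.1% in *Skil*. It was below it for *Inhba*, at 17.9% in control and 5.86% with DB2313, for *Tgfbr1* and for *Smad7*.

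The tested gene whose log2 CPM over the 6 libraries was most like that of *Inhba* was *Rbpms*, an RNA-binding protein, with a Pearson correlation of 0.997, followed by *Cdkn3* (0.997), *Gm4294* (0.992), *Ifitm3* (0.987) and *Tal1* (0.986). Of the 11371 genes compared, which had a mean of at least 50 counts, 98 had a correlation above 0.95. These 6 points share the split into 2 groups, so that any gene higher with DB2313 and with the same order of libraries ranks high.

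The other genes of the TGF-beta, activin and BMP pathways were read from a list of 83 genes by role, of which 63 were tested. With DB2313, 4 rose (*Gdf15*, *Id1*, *Id3* and *Cd109*) and 7 fell (*Tgfb2*, *Thbs1*, *Nrros*, *Bmpr2*, *Ski*, *Junb* and *Cx3cr1*). This was 17.5% of the 63 genes, beside 10.6% of all tested genes, 4.66% as higher and 5.94% as lower. The median log2 fold change of the 63 was -0.036. Because the list was chosen with earlier results of these data known, this share is no test of the pathways. Each role below held 7 to 14 tested genes, too few for 1 or 2 calls in a direction to describe the role. *Cx3cr1*, *Gdf15*, *Id3*, *Tgfb2* and *Thbs1* passed in all 16 alternative fits, and the other 6 genes did not.

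Of the ligands, 1 of 7 tested rose and 1 fell. *Gdf15*, a stress-induced member of the superfamily that signals through a receptor of another kind, rose from 9.12 ± 0.619 to 17.8 ± 3.84 CPM (SD, n = 3 each), a shift of 0.97 ± 0.16 on the log2 scale (SE, edgeR adjusted p 0.00105). *Tgfb2* fell from 14.99 ± 1.57 to 8.47 ± 0.976 CPM, a shift of -0.82 ± 0.15 on the log2 scale (SE, edgeR adjusted p 0.0021). Per length, *Tgfb2* was at 2.59 RPKM and *Tgfb3* at 0.104 RPKM in control, beside the 72.03 RPKM of *Tgfb1*. The isoform that fell was therefore a minor one, while the major isoform did not pass the test.

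Of the genes that hold TGF-beta latent or release it, 2 of 9 tested fell and none rose, beside 5.94% and 4.66% of all tested genes. *Thbs1*, thrombospondin 1, which can activate latent TGF-beta, fell from 2647 ± 206 to 1942 ± 235 CPM (SD, n = 3 each), a shift of -0.45 ± 0.09 on the log2 scale (SE, edgeR adjusted p 0.00337). *Nrros*, which anchors latent TGF-beta on myeloid cells, fell from 322 ± 5.88 to 263 ± 6.42 CPM, a shift of -0.29 ± 0.06 on the log2 scale (SE, edgeR adjusted p 0.00807). The adjusted p of *Nrros* was 0.0606 without control replicate 3 and 0.0832 without DB2313 replicate 2.

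Of the receptors and co-receptors, 1 of 10 tested rose and 1 fell. *Bmpr2*, the type II receptor for BMPs, fell from 57.7 ± 5.46 to 41.8 ± 8.35 CPM, a shift of -0.47 ± 0.12 on the log2 scale (SE, edgeR adjusted p 0.0219). *Cd109*, a co-receptor that restrains TGF-beta signalling, rose from 0.685 ± 0.00788 to 2.31 ± 0.851 CPM, on 11 counts in each control library and 26 to 54 in the DB2313 libraries (log2 fold change 1.74 ± 0.41, SE, edgeR adjusted p 0.0132). The adjusted p of *Bmpr2* was 0.0549, 0.135 and 0.0563 without control replicates 1, 2 and 3, and 0.13 without DB2313 replicate 2. That of *Cd109* was 0.0557, 0.0540 and 0.0510 without control replicates 1, 2 and 3, and 0.0518 without DB2313 replicate 3. The activin receptors *Acvr1b* (type I, log2 fold change -0.19 ± 0.09, SE) and *Acvr2a* (type II, 0.19 ± 0.17) missed the threshold (edgeR adjusted p 0.232 and 0.560).

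Of the other SMADs and positive regulators, none of 9 tested passed, while the unadjusted p was under 0.05 for 2, as it was for 3309 of the 14174 genes tested. *Smad2*, the partner of *Smad3* downstream of the same receptors, shifted by -0.17 ± 0.10 on the log2 scale (SE, edgeR adjusted p 0.364). *Smad4*, the shared partner of receptor-activated SMADs, shifted by -0.23 ± 0.08 on that scale, with an unadjusted p of 0.0151, and did not pass after adjustment although its groups did not overlap. The other was *Zfyve9*, which presents SMADs to the receptors (-0.77 ± 0.33, edgeR adjusted p 0.163). Of the inhibitors, *Ski*, a relative of *Skil*, was the one called of 14 tested, with a fall from 139 ± 4.56 to 118 ± 6.14 CPM, or -0.24 ± 0.07 on the log2 scale (SE, edgeR adjusted p 0.0463). *Ski* passed in 7 of the 16 alternatives. Its adjusted p was 0.189, 0.124 and 0.13 without control replicates 1, 2 and 3, and 0.0540 and 0.252 without DB2313 replicates 1 and 2. *Fst*, which encodes the activin antagonist follistatin, was not tested, with 0.164 ± 0.233 CPM in control and 0.120 ± 0.159 CPM with DB2313.

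Of the genes known as targets of the pathways, 2 of 14 tested rose and 2 fell. The inhibitors of helix-loop-helix factors *Id3* and *Id1*, which BMP signals induce, rose, *Id3* from 39.1 ± 2.76 to 55.99 ± 2.86 CPM (log2 fold change 0.52 ± 0.09, SE, edgeR adjusted p 0.00136) and *Id1* from 16.8 ± 2.21 to 23.7 ± 4.58 CPM (0.50 ± 0.15, 0.0413). The groups overlapped for *Id1*, which passed in 8 of the 16 alternatives. Its adjusted p was 0.123, 0.196 and 0.0577 without control replicates 1, 2 and 3, and 0.0604 and 0.211 without DB2313 replicates 1 and 2. *Cx3cr1*, the fractalkine receptor, fell from 11.01 ± 0.267 to 4.56 ± 0.982 CPM (log2 fold change -1.26 ± 0.18, SE, edgeR adjusted p 4.0e-04). *Junb*, an AP-1 subunit, fell from 303 ± 22.9 to 245 ± 23.9 CPM (-0.30 ± 0.08, 0.0278), and its adjusted p was 0.147 and 0.138 without control replicates 1 and 3, and 0.116 without DB2313 replicate 2. Target genes thus moved both ways.

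**Figure D4:**
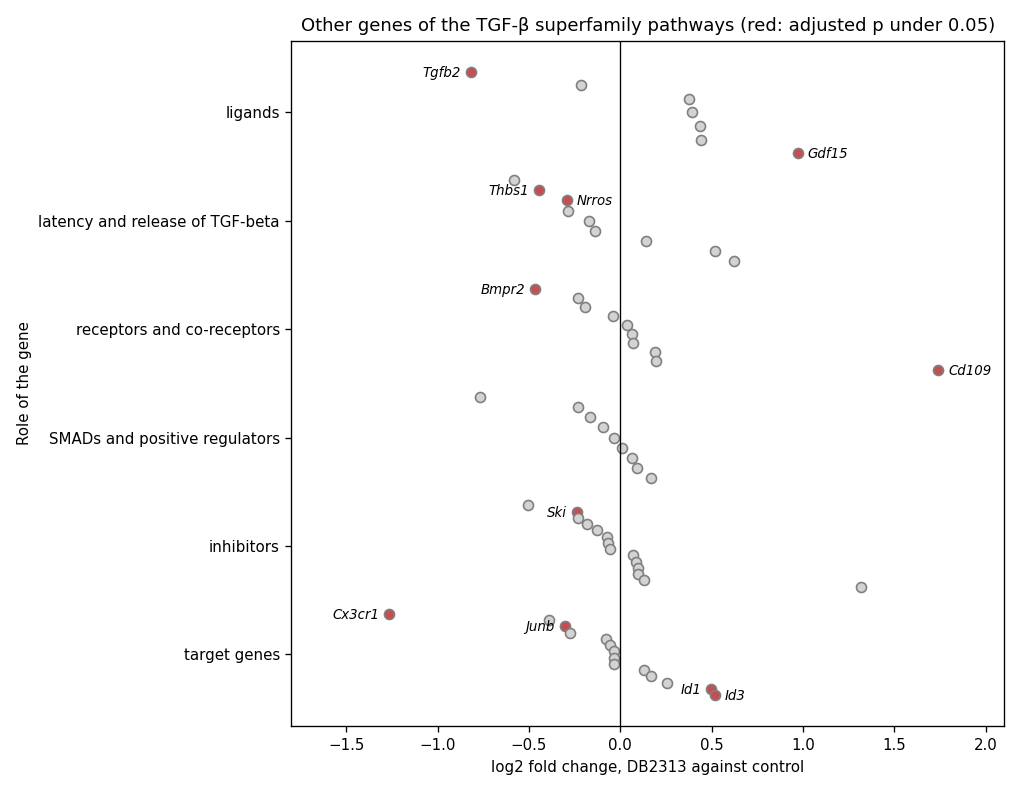
Log2 fold change, DB2313 against control, of the 63 tested genes of the pathway list outside the 9, by role, with genes past an adjusted p of 0.05 in red and named. Red points lie on both sides of 0, with 4 genes higher and 7 lower, and no gene of the SMAD row is red.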

How the data were processed

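RNA-seq was performed on 6 libraries of cultured mouse dendritic cells, 3 control and 3 treated with DB2313. A table deposited by the authors held unnormalised whole-number counts for each gene and library, with the position and length of each gene. The submitters' processing notes name CASAVA 1.8, HISAT2 2.0.5 and featureCounts 1.5.0-p3, whereas the methods of the study name LifeScope. Which of them made the table, the genome build and the strand setting were not given in the sources used here. Of 54409 gene identifiers shared with GENCODE M21 (GRCm38), 98.33% had the same start and end. Reads that match several genes, or an antisense gene, may be shared out in a way that cannot be seen from the counts.

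Samples were grouped by the treatment in the labels. Columns were matched to samples by their names and numbers. Counts were tested with edgeR 4.0.16 (quasi-likelihood, TMM, filterByExpr, group as the only term) in R 4.3.3, with Benjamini-Hochberg adjustment over all 14174 genes tested and a threshold of 0.05. The study names DESeq2, which was an alternative (1.42.0), as were limma-voom (3.58.1), other scalings and filters, protein-coding genes only, a gene length offset (lowess, span 0.3), the replicate block, and each library left out. The fitting was tested on simulated data with the same setting of spread for all genes and both groups. The wider spread between DB2313 libraries was not simulated, so this checked the code only. CPM and RPKM use TMM-scaled library sizes. Intervals are 95% and use the residual degrees of freedom of the fit. Copies were searched with blastn 2.17.0 among GENCODE M21 transcripts (95% identity over 100 bp or more). Reads carry no molecular identifiers, so counts are not independent molecules.

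The genes, the lists of pathway genes and markers (written from general knowledge) and the motifs were chosen with earlier results of these data known. The naming rule took the 9 genes, each other pathway gene past the threshold, and the 5 genes most correlated with the member of largest fold change among those with a mean of at least 50 counts. The receptors *Acvr1b* and *Acvr2a*, *Smad2*, *Smad4*, *Zfyve9*, *Tgfb3*, *Fst*, *Gm16031* and the marker genes were named outside this rule, after their values were seen.

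No batch or date was given.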

Additional observations from a re-analysis of the deposited data

How the results depend on the processing

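Of the 9 genes, *Tgfbi* and *Inhba* were the only ones called in each of the 16 alternatives, both as higher. The log2 fold change of *Tgfbi* lay between 0.41 and 0.58 (adjusted p at most 0.00797) and that of *Inhba* between 0.64 and 0.87 (adjusted p at most 0.0458). The other 7 genes were called in none, and the lowest adjusted p among them was 0.0538, for *Smad3* without DB2313 replicate 1. *Skil* lay near 0 and turned negative with limma-voom (-0.0051) and with the replicate block (-0.0062). When single libraries were left out it lay between -0.054 and 0.11. No other of the 9 changed sign.

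When single libraries were left out, between 739 (without DB2313 replicate 2) and 2408 (without DB2313 replicate 3) genes changed, beside 1503 with all libraries. It was 846, 796 and 854 without control replicates 1, 2 and 3. Between 328 and 1097 genes were higher and between 411 and 1311 lower. Of the pathway genes outside the 9, between 5 (without control replicate 3) and 13 (without DB2313 replicate 3) changed, beside 11 with all libraries, with 6 and 7 without control replicates 1 and 2 and 6 without DB2313 replicate 2. Why leaving out DB2313 replicate 3 gave more calls was not tested.

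Same-numbered control and treated libraries had correlations of their deviations of 0.0035, -0.024 and -0.12. Those with different numbers had -0.072 to 0.096. These values show no pairing by number, but with 3 libraries per group they cannot exclude a shared culture or animal. With the replicate block 1131 genes changed, among them *Tgfbi*, *Inhba* and 9 of the other pathway genes, and *Id1* (adjusted p 0.0640) and *Ski* (0.116) were not called. *Id1* was also lost with limma-voom (0.0547), and *Ski* with library totals (0.0827) and with no filter (0.0796). With 124 to 169 counts in control, *Inhba* is the gene of the 9 with the lowest counts.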
